A study of Citrus trifoliata with 2 samples.

Results

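The unigenes described here are the RING and U-box ubiquitin ligases of trifoliate orange (Citrus trifoliata), a deciduous relative of citrus that is grown as a rootstock. They were chosen by annotation alone: the Swiss-Prot name of the best hit had to contain E3 ubiquitin-protein ligase, RING-H2 finger, RING finger or U-box domain-containing, and names with COP1 were set aside. Of 35775 unigenes, which are assembled transcript models without a genome position, 373 met this rule, and they carried 167 different protein names. The study compared an early-flowering mutant, the precocious trifoliate orange, with its wild type by RNA sequencing of poly(A) RNA, with 1 library of each. Both libraries came from 2-year-old trees that had received no treatment. The tissue was the top bud of spring shoots together with the 5 buds next to it, sampled once the shoot tip had been shed. How many trees went into a library is not given in the sources used here, and the mutated gene is not named there.

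Ubiquitin is attached to proteins by a relay in which an activating enzyme (E1) hands it to a conjugating enzyme (E2), and a ligase (E3) brings the charged E2 to the substrate. RING and U-box domains are related folds that hold the E2, and the ligases that carry them pass ubiquitin straight to the substrate. HECT ligases instead take ubiquitin onto their own cysteine first, and RBR ligases combine features of both kinds. Plants use many such ligases to set the amount of receptors, transcription factors and misfolded proteins, and several act in meristems, in abscisic acid signalling and in the timing of flowering.

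The label did not hold for every member. HECT ligases numbered 52, since their names contain the same words, and 26 of those were hits to the plant UPL family. A further 25 were hits to HERC proteins, large animal ligases that combine a HECT domain with RCC1 repeats. Of the HERC hits, 17 carried a COG description of the RCC1 repeat and 8 carried none, so none had a COG description of a ubiquitin ligase. The COG description named a kinase for 9 of 72 U-box unigenes and for 3 of 5 hits to KEG, and a helicase for 3 of 4 hits to SHPRH. Of the 150 members with any COG description, 94 had one that named a ubiquitin ligase or a RING domain. The best hit was a plant protein for 222 members, 219 of them from Arabidopsis, and a protein from outside plants for 151, with 50 human and 27 mouse entries. Hits to the yeasts Saccharomyces cerevisiae and Schizosaccharomyces pombe numbered 6, and none of these was 2-fold apart between the libraries. Of all unigenes kept for comparison, 8.61% were 2-fold higher in the mutant library and 5.31% were 2-fold lower, so 6 hits are too few to show a difference. Weak hits, with an E-value above 1e-10, numbered 81.

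Counted in units of 1000, reads on unigenes came to 10037 for the mutant and 9995 for the wild type. Members took 127668 reads (1.27%) in the mutant library, against 131503 (1.32%) in the wild type. Levels are given as RPKM, read numbers adjusted for unigene length and for library depth. Of 8 marker groups of the shoot apex, 7 had reads in each library, with 10454 reads in the mutant library against 10285 in the wild type, while WUSCHEL had no unigene. More reads in the mutant library were found for CLAVATA1 (2908 against 2790), AINTEGUMENTA (362 against 195), CUP-SHAPED COTYLEDON (127 against 98) and ATML1 or PROTODERMAL FACTOR 2 (9 against 3). Fewer were found for KNAT1 or KNOTTED-1-like (6643 against 6717), SHOOT MERISTEMLESS (137 against 171) and YABBY (268 against 311). Of 3 floral marker groups, 2 had reads in each library (570 in the mutant library against 420 in the wild type), and AGAMOUS had no unigene. The leaf mesophyll markers, the RuBisCO small chain and chlorophyll a-b binding proteins, summed to 32559 reads in the mutant library against 34655 in the wild type. The RuBisCO small chain had 305 reads in the mutant library against 276 in the wild type. Chlorophyll a-b binding proteins went the other way, with 32254 and 34379 in that order. Best hits to fungal proteins numbered 844 over the whole table, with 297836 reads in the mutant library against 295057 in the wild type. The part of all these in the ligase values was not tested. The samples are whole buds, so fewer cells of a type and less RNA per cell cannot be told apart.

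Most ligase unigenes had near-equal levels in the mutant and the wild-type library. Unigenes below an RPKM of 1 in both libraries were set aside, which removed 16 members and kept 357. Their log2 ratio, log2((mutant RPKM + 1) / (wild-type RPKM + 1)), had a median of −0.02, an interquartile range of −0.20 to 0.25 and extremes of −2.84 and 2.56. The ratio was positive for 168 members and negative for 189. The mean of 0.02 had the opposite sign to the median. Over all 34255 kept unigenes the median was 0.05. The threshold of 2-fold was reached toward the mutant by 12 members (3.36%), where 8.61% of all kept unigenes were. It was reached toward the wild type by 13 members (3.64%), where 5.31% of all kept unigenes were. Counts past 2-fold below use this log2 ratio, with its pseudocount of 1, unless reads are named. Members were longer and more deeply read than the rest of the table: their median length was 1247 bases and their median read number over both libraries 321, while all kept unigenes had medians of 555 bases and 87 reads. Among kept unigenes with any Swiss-Prot hit, whose median read number was 318, 5.68% were 2-fold higher and 3.71% were 2-fold lower. With 1 library per genotype no test across trees was possible. Folds below were computed from reads scaled to the library totals, and the ranges after them are exact 95% Clopper-Pearson intervals, which describe counting error alone and say nothing of tree-to-tree differences.

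**Figure D1:**
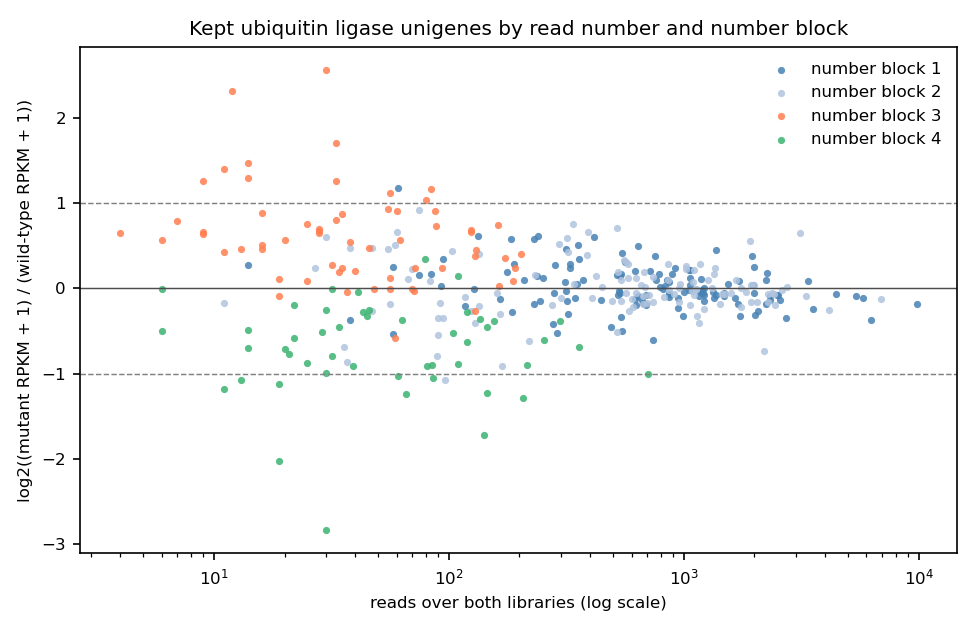
Each point is 1 of the 357 kept ligase unigenes, placed by its reads over both libraries (log scale) and by its log2 ratio at a pseudocount of 1, and coloured by its block of unigene numbers; dashed lines mark 2-fold. Members with at least 100 reads mostly lie near 0, with 0 of 243 past 2-fold toward the mutant library and 4 (1.65%) toward the wild type, where 1.86% and 0.517% of all kept unigenes with as many reads were, and the points past 2-fold come mostly from blocks 3 and 4.

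Ratios of members leaned one way in part of the unigene numbering. Length falls abruptly at 7 places along the numbers, which gives 8 runs and, in pairs, 4 blocks: unigenes 1 to 9238, 9239 to 18200, 18201 to 28013 and 28014 to 36523. Block 1 held 58 members with a positive and 69 with a negative ratio, and block 2 held 54 and 66 in that order. In block 3, 54 of 62 kept members had a positive ratio, 11 (17.7%) were 2-fold higher in the mutant library and 0 were 2-fold lower. In block 4, 46 of 48 had a negative ratio, 12 (25.0%) were 2-fold lower and 0 were 2-fold higher. The same lean was present across the table, where 29.3% of all kept unigenes of block 3 were 2-fold higher and 23.0% of those of block 4 were 2-fold lower. The median log2 ratio of members was 0.56 in block 3 and −0.66 in block 4, while all kept unigenes had medians of 0.66 and −0.55 there. Members of blocks 3 and 4 were thinly read, with medians of 33.5 and 36.5 reads over both libraries, whereas those of blocks 1 and 2 had medians of 738 and 629. Blocks 1 and 2 together held 247 kept members, of which 1 was 2-fold higher and 1 was 2-fold lower (0.405% each). Of all kept unigenes in these blocks, 1.82% were 2-fold higher and 0.544% were 2-fold lower. The median of members in them was −0.04, and that of all kept unigenes 0.02. How the assembly produced the blocks is not given in the sources used here, and the part of the block in each difference was not tested.

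The ligase unigenes higher in the mutant library had few reads, between 9 and 84 over both libraries, and all 12 had intervals that excluded 1. They comprised 4 U-box, 4 HECT, 2 ATL and 2 RING finger unigenes. Unigene27711, a hit to U-box domain-containing protein 15 (PUB15), had 29 reads in the mutant library against 1 in the wild type (6.13 and 0.212 RPKM in that order), a 28.9-fold difference (4.79 to 1179.5). Unigene22609, another PUB15 hit, had 10 reads in the mutant library against 1 in the wild type (9.96-fold, 1.42 to 432.2). Unigene24213, a hit to PUB40, had 28 reads in the mutant library against 5 in the wild type (5.58-fold, 2.13 to 18.5). All 3 of these unigenes are in block 3. On the log2 scale with the pseudocount, the PUB15 hit Unigene2456 was the only member 2-fold higher in blocks 1 and 2. It had 45 reads in the mutant library against 16 in the wild type (2.80-fold, 1.55 to 5.31), from a weak hit with an E-value of 2e-09. By reads, the PUB43 hit Unigene14734 of block 2 was also past 2-fold, with 52 reads in the mutant library against 23 in the wild type.

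RING-H2 proteins of the ATL family, which are membrane-anchored ligases, gave another pair. Unigene27102, a hit to ATL1M, had 12 reads in the mutant library against 0 in the wild type, at least 3.98-fold higher against a floor of 3 reads in the wild-type library, with an exact lower limit of 2.77. Unigene23368, a hit to ATL4D, had 25 reads in the mutant library against 8 in the wild type (3.11-fold, 1.36 to 7.98). Both are short block 3 unigenes, of 301 and 424 bases.

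HECT-type hits on the same side were likewise short or thinly read. The hits to UPL7 (Unigene18600) and HERC2 (Unigene21914, E-value 6e-08) had 12 reads each in the mutant library against 2 each in the wild type (5.97-fold, 1.33 to 55.0). All 4 UPL7 hits summed to 651 reads in the mutant library against 728 in the wild type. A UPL1 hit, Unigene24533, had 8 reads in the mutant library against 1 in the wild type, with an interval of 1.07 to 353.5. The RING finger protein 43 hit Unigene19460 had 61 reads in the mutant library against 23 in the wild type (2.64-fold, 1.61 to 4.47). RING finger protein 43 is a membrane ligase that acts on Wnt receptors in mammals, and this hit was weak (8e-10). All 4 hits to that name summed to 984 reads in the mutant library against 1008 in the wild type. The remaining pair, which the naming rule did not reach, were a second HERC2 hit (Unigene24503, 42 reads in the mutant library against 14 in the wild type) and a hit to RING finger protein 5 (Unigene24562, 57 and 23 reads in that order).

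The unigenes lower in the mutant library reached deeper read numbers, from 11 to 702 over both libraries, and 4 of the 13 had at least 100 reads. Unigene36491, a hit to the HECT ligase UPL2, had 25 reads in the mutant library against 116 in the wild type (1.67 and 7.77 RPKM in that order), 4.66-fold lower (3.00 to 7.50). All 4 UPL2 hits summed to 234 reads in the mutant library against 351 in the wild type (1.51-fold lower, 1.27 to 1.78). Unigene28433 had 30 reads in the mutant library against 116 in the wild type, 3.88-fold lower (2.58 to 6.01). Its best hit is PUB33, and the U-box of that Arabidopsis protein is joined to a protein kinase domain. All 6 PUB33 hits summed to 2461 reads in the mutant library against 2891 in the wild type (1.18-fold lower, 1.12 to 1.25). A UPL1 hit of 2925 bases, Unigene30444, had 48 reads in the mutant library against 159 in the wild type, 3.33-fold lower (2.40 to 4.70). Unigene33534, 6298 bases long, had 213 reads in the mutant library against 489 in the wild type, 2.31-fold lower (1.96 to 2.72). Its best hit is mouse UBR2, which recognises destabilising first residues of proteins. All 4 of these deeper unigenes are in block 4, and the UBR2 hit lay at a log2 ratio of −1.005, just past the threshold.

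Among the lower unigenes with fewer reads, Unigene36294 stood at 0 reads in the mutant library against 30 in the wild type. It was at least 10.0-fold lower against the floor of 3 reads in the mutant library, with an exact lower limit of 7.67, and its best hit is DDB_G0283893, a protein of the amoeba Dictyostelium. Unigene28851, a UPL1 hit of 289 bases, had 2 reads in the mutant library against 17 in the wild type (8.54-fold lower, 2.03 to 76.2). Unigene34225, a hit to CHIP, the U-box ligase that works with heat shock chaperones, had 16 reads in the mutant library against 45 in the wild type (2.82-fold lower, 1.57 to 5.35). On the log2 scale with the pseudocount, the only member 2-fold lower in blocks 1 and 2 was Unigene9398, a UPL1 hit of 1430 bases. It had 26 reads in the mutant library against 70 in the wild type (2.70-fold lower, 1.70 to 4.42). By reads, block 2 hits to MARCH11 (Unigene10336, 2.37-fold lower), KEG (Unigene14116, 2.08-fold lower) and PUB13 (Unigene9966, 2.08-fold lower) were also past 2-fold. Of the 13, 3 had intervals that included 1: a second DDB_G0283893 hit (Unigene36064, 2 reads in the mutant library against 9 in the wild type), the ATL5E hit Unigene32392 (5 and 14 in that order) and the ATL5J hit Unigene32861 (3 and 10). The last members are the HERC2 hit Unigene29188, with 15 reads in the mutant library against 51 in the wild type, and the PUB34 hit Unigene36376, with 26 and 60 reads in that order, which the naming rule did not reach. All 3 PUB34 hits summed to 170 reads in the mutant library against 212 in the wild type.

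**Figure D2:**
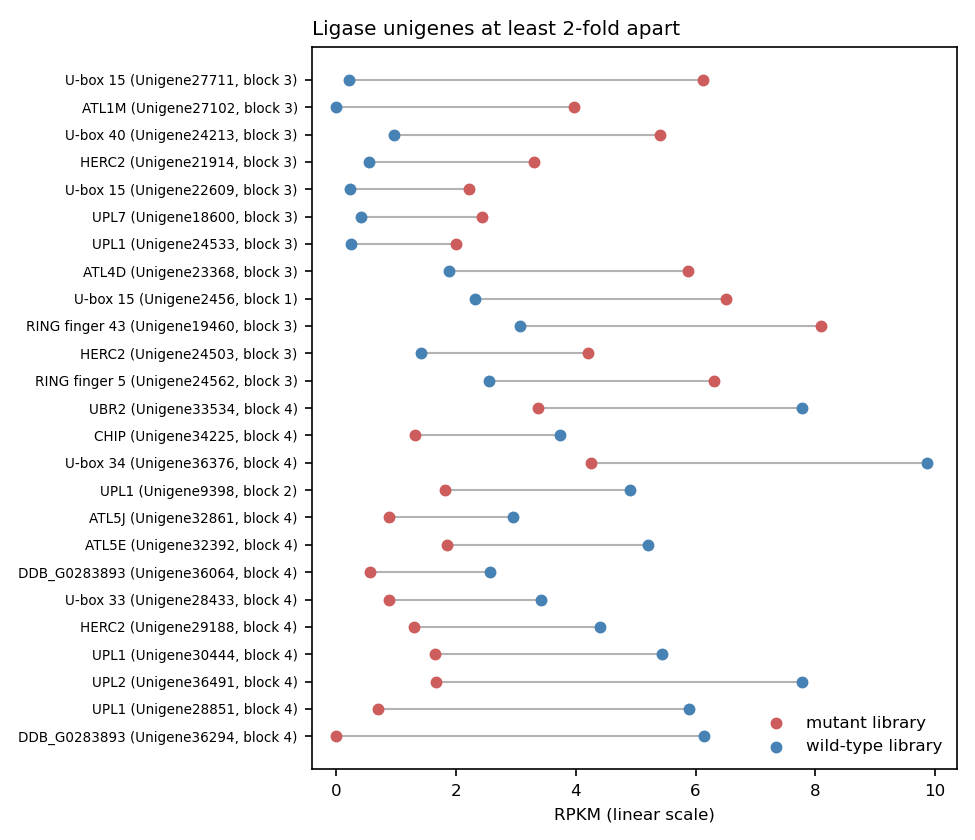
RPKM on a linear scale in the mutant library (red) and the wild-type library (blue) for the 25 ligase unigenes at least 2-fold apart, sorted by log2 ratio, with the best hit, unigene number and number block of each. All levels are below 10 RPKM in both libraries, the 12 upper unigenes come from blocks 1 and 3, and the 13 lower ones from blocks 2 and 4.

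The members just inside the threshold were the UBR2 hit, the CHIP hit (log2 ratio −1.028) and the RING finger protein 5 hit (1.039). Just outside it lay a HERC2 hit, Unigene36379, at −0.997 (8 reads in the mutant library against 22 in the wild type), a Polycomb group RING finger protein 3 hit, Unigene18329, at 0.929 (42 and 13 in that order) and a PUB43 hit, Unigene14734, at 0.92 (52 and 23).

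Among the 5 most abundant ligase unigenes, 1 was past 1.5-fold and the other 4 were not. At an RPKM of at least 10 in both libraries stood 185 members. The highest was Unigene15218, with 608.6 RPKM in the mutant library against 388.7 in the wild type, from 1906 and 1212 reads in that order (1.57-fold higher, 1.46 to 1.68). Its best hit, human RCHY1, is a ligase that targets p53 in mammals, but the hit was weak (2e-06) and the unigene only 312 bases long. Unigene7693, a hit to CHFR, a mitotic checkpoint ligase of animals, had 221.4 RPKM in the mutant library against 240.1 in the wild type. The HERC2 hit Unigene8504 had 2744 reads in the mutant library against 3534 in the wild type, 1.29-fold lower (1.23 to 1.36). RING finger protein 126, a quality control ligase in human cells, was matched by Unigene8628 at 165.8 RPKM in the mutant library against 174.1 in the wild type. The highest U-box member, a hit to PUB8 (Unigene5251), had 149.6 RPKM in the mutant library against 146.7 in the wild type. In the ATL family the highest was the ATL3I hit Unigene16670, with 563 reads in each library. The highest SINA member, a SINA-like 10 hit (Unigene15521), had 128 reads in the mutant library against 147 in the wild type. For the RBR class it was the RNF217 hit Unigene8671, with 1220 reads in the mutant library against 1282 in the wild type, and for the BRE1 class the bre1 hit Unigene5496, with 282 and 253 in that order.

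The 8 classes had medians between −0.08 and 0.08 on the log2 scale, with positive and negative members in each. HECT ligases had 4 of 48 kept members higher (8.33%), 5 lower (10.4%) and a median of −0.07, where 8.61% of all kept unigenes were higher and 5.31% were lower. Their summed reads were 23448 in the mutant library against 26443 in the wild type, 1.13-fold lower (1.11 to 1.15). U-box proteins had 4 of 68 higher, 3 lower and a median of 0.01, with sums of 19688 reads in the mutant library against 21108 in the wild type. The ATL family, 55 kept members, had 2 higher, 2 lower and a median of 0.08, and its summed reads were 1.09-fold higher (1.05 to 1.12), with 8723 in the mutant library against 7988 in the wild type. RING finger proteins had 2 of 57 higher, 0 lower and a median of 0.05, and other named ligases had 0 of 99 higher, 3 lower and a median of −0.06. Trimmed mean scaling lowers every ratio by 0.07 and turns the U-box, RING finger and BRE1 medians negative, and the U-box median is also negative when ratios are centred on the median of all kept unigenes, without a minimum RPKM, at a minimum of 5 and with at least 100 reads. None of the 17 RBR, 10 SINA and 3 BRE1 members was 2-fold apart on the log2 scale with the pseudocount. Within blocks 1 and 2 the class medians ran from −0.09 for HECT to 0.08 for ATL. The only members past 2-fold there on that scale were the PUB15 hit Unigene2456 and the UPL1 hit Unigene9398.

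**Figure D3:**
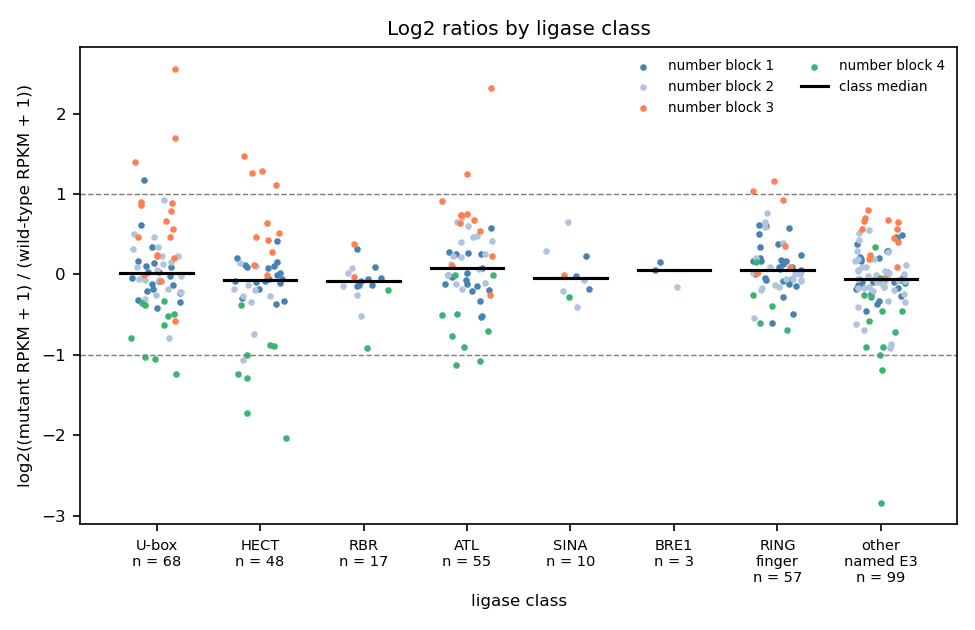
Log2 ratio of every kept ligase unigene by class, with the number of unigenes under each name, points coloured by number block, black bars at the class medians and dashed lines at 2-fold. Medians lie between −0.08 and 0.08, and block 3 points are mostly above 0 while block 4 points are mostly below it.

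Ligases of growth, meristem and flowering had no member past the threshold on the log2 scale with the pseudocount, and by reads 1 was at least 2-fold lower. This list held 26 unigenes, all kept, and 21 of them are in blocks 1 and 2, where 1.82% of all kept unigenes were 2-fold higher and 0.544% were 2-fold lower (8.61% and 5.31% over all blocks). These shares use the log2 ratio with the pseudocount, and shares by reads are not given here. The list had 9 positive and 17 negative ratios and a median of −0.06. The BRE1-like 1 hit (Unigene3478), whose Arabidopsis counterpart HUB1 marks histone H2B with ubiquitin and sustains FLC, a repressor of flowering, had 793 reads in the mutant library against 758 in the wild type. BRE1-like 2, its partner, was matched by Unigene9867 with 1077 reads in the mutant library against 1200 in the wild type (1.12-fold lower, 1.03 to 1.22). Neither of these histone ligases reached a 1.5-fold difference. UPL3, which limits DNA doubling in leaf hairs, was matched by Unigene18200 with 3311 reads in the mutant library against 3607 in the wild type (1.09-fold lower, 1.04 to 1.15). UPL5, which restrains leaf senescence in Arabidopsis, had 2 hits with 799 and 265 reads in the mutant library against 860 and 319 in the wild type. The 8 hits to PUB4 summed to 2888 reads in the mutant library against 2995 in the wild type, and their log2 ratios ran from −0.42 to 0.34. The 2 PUB14 hits summed to 700 reads in the mutant library against 645 in the wild type. The hits to SINAT5, which lowers the auxin-response factor NAC1, had 24 and 18 reads in the mutant library against 24 and 25 in the wild type. ARI ligases, of the RBR class, gave 9 unigenes. Of these the ARI7 hit was the most deeply read, with 1222 reads in the mutant library against 1338 in the wild type. The ARI9 hit Unigene28531 of block 4 had 9 reads in the mutant library against 30 in the wild type, 3.35-fold lower by reads (1.55 to 8.02) but only −0.91 on the log2 scale with the pseudocount.

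Ligases of drought, cold and abscisic acid responses had no member among 18 past the threshold on the log2 scale with the pseudocount, where 8.61% of all kept unigenes were past it toward the mutant and 5.31% toward the wild type. By reads, 1 was at least 2-fold higher and 2 were at least 2-fold lower, and these also passed at a pseudocount of 0.1. They were the PUB9 hit Unigene27989, with 62 reads in the mutant library against 25 in the wild type (2.47-fold higher, 1.53 to 4.10), and the KEG hits Unigene34240 (2.49-fold lower) and Unigene14116 (2.08-fold lower). Shares by reads over all kept unigenes are not given here. The 18 unigenes had 8 positive and 10 negative ratios, a median of −0.07 and a mean of the opposite sign, 0.03. HOS1, which acts in cold signalling and holds back flowering in Arabidopsis, was matched by Unigene1256 with 594 reads in the mutant library against 624 in the wild type. RGLG2, which lowers a drought-response factor, had 4 hits. The deepest, Unigene2025, had 795 reads in the mutant library against 577 in the wild type (1.37-fold higher, 1.23 to 1.53), and all 4 together summed to 1813 and 1528 in that order (1.18-fold, 1.10 to 1.27). The 2 RGLG1 hits summed to 609 reads in the mutant library against 590 in the wild type. PUB9, linked to abscisic acid responses in Arabidopsis, had 171 reads in the mutant library against 113 in the wild type over 4 hits (1.51-fold, 1.18 to 1.93). PUB44, known as SAUL1 and as a brake on premature senescence, had 725 reads in the mutant library against 838 in the wild type over 2 hits.

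The immunity list held 5 unigenes with a median of 0.20, and none was past the threshold on the log2 scale with the pseudocount. Of all kept unigenes, 8.61% were past it toward the mutant and 5.31% toward the wild type. By reads, 1 of the 5 was at least 2-fold higher and 1 was at least 2-fold lower, and shares by reads over all kept unigenes are not given here. BAH1, also called NLA, tunes responses to nitrogen limitation and salicylic acid, and its hit Unigene743 had 376 reads in the mutant library against 262 in the wild type (1.43-fold higher, 1.22 to 1.68). PUB13 promotes removal of the flagellin receptor in Arabidopsis. The most deeply read of its 4 hits, Unigene11370, had 1308 reads in the mutant library against 1325 in the wild type. Another, Unigene9966, had 29 reads in the mutant library against 60 in the wild type (2.08-fold lower, 1.31 to 3.36). Its log2 ratio was −0.79, and −1.02 at a pseudocount of 0.1. The PUB13 hit Unigene23380 of block 3 had 13 reads in the mutant library against 3 in the wild type (4.32-fold higher, 1.19 to 23.6).

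Ligases of protein quality control and the N-degron pathway had 1 member 2-fold higher (4.17%) and 5 lower (20.8%) among 24 kept of 26, with a median of −0.16, where 8.61% of all kept unigenes were 2-fold higher and 5.31% were 2-fold lower. Of the 5 lower ones, 4 are in block 4, where 23.0% of all kept unigenes were 2-fold lower. Hits to UPL1 gave 4 of these 6, and the others were the CHIP hit Unigene34225 and the UBR2 hit Unigene33534. The list was set by protein name and left out the hits to UPL2 and DDB_G0283893, so its shares depend on that choice. A second CHIP hit in block 3, Unigene22658, had 35 reads in each library. The second UBR2 hit, Unigene16015 of block 2, had 344 reads in the mutant library against 338 in the wild type. PRT1, which recognises aromatic first residues, had 4 hits that were all lower in the mutant library, and they summed to 1573 reads in the mutant library against 1875 in the wild type (1.20-fold lower, 1.12 to 1.28). The ligases of degradation at the endoplasmic reticulum, synoviolin and MARCH6, had 1000 and 1612 reads in the mutant library against 971 and 1709 in the wild type. RING finger protein 160, listerin, clears products of stalled ribosomes, and its deeper hit Unigene10883 had 974 reads in the mutant library against 1088 in the wild type. The hits to UBR1, UBR3 and UBR7 had 19, 40 and 363 reads in the mutant library against 9, 32 and 315 in the wild type.

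Unigenes with the same best hit often disagreed in direction. Whether they are pieces of 1 transcript or separate copies was not tested. Their reads were also summed per protein name, a step added after the values were seen. Of the 167 names, 88 had several unigenes. Among the 143 names with at least 100 summed reads, 1 was 2-fold higher in the mutant library, PUB15, and 1 was 2-fold lower, DDB_G0283893. The 7 PUB15 unigenes summed to 109 reads in the mutant library against 50 in the wild type (2.17-fold, 1.54 to 3.10), with 3 of them 2-fold higher and 2 block 4 unigenes leaning the other way. The 3 DDB_G0283893 unigenes summed to 43 reads in the mutant library against 93 in the wild type (2.17-fold lower, 1.50 to 3.19). At a lower bar of 1.5-fold, 6 names were higher and 3 were lower. Shares over all protein names summed in this way are not given here, so these counts stand without a background. The names UPL1 and HERC2 had unigenes 2-fold apart in both directions.

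UPL1 shows the pattern in detail. Its 11 unigenes summed to 8201 reads in the mutant library against 9706 in the wild type, 1.19-fold lower (1.15 to 1.22). The longest, Unigene2950 of 8218 bases, had 4628 reads in the mutant library against 5238 in the wild type (1.14-fold lower, 1.09 to 1.18). Unigene9105 had 2638 reads in the mutant library against 2794 in the wild type. Both are in block 1 and carried most of the UPL1 reads. Unigene10670 of block 2, 5711 bases long, was further apart, with 813 reads in the mutant library against 1387 in the wild type (1.71-fold lower, 1.57 to 1.87). The only UPL1 unigenes with more reads in the mutant library were Unigene22342 (10 in the mutant library against 6 in the wild type) and Unigene24533, both of block 3.

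KEG, a ligase that removes the abscisic acid transcription factor ABI5 in Arabidopsis, had long unigenes in all 4 blocks. In block 1, Unigene9149 had 1631 reads in the mutant library against 1922 in the wild type (1.18-fold lower, 1.11 to 1.26). In block 2, Unigene14308 had 865 reads in the mutant library against 804 in the wild type, and Unigene14116 had 55 and 114 in that order. The longest lay opposite each other. Unigene24266 of block 3, with 5086 bases, had 123 reads in the mutant library against 80 in the wild type (1.53-fold higher, 1.15 to 2.06), and Unigene34240 of block 4, with 4533 bases, had 62 and 154 (2.49-fold lower, 1.85 to 3.41). Summed, KEG stood at 2736 reads in the mutant library against 3074 in the wild type, 1.13-fold lower (1.07 to 1.19). HERC2 also had ratios of both signs over 16 unigenes, with 5807 reads in the mutant library against 6544 in the wild type (1.13-fold lower, 1.09 to 1.17).

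**Figure D4:**
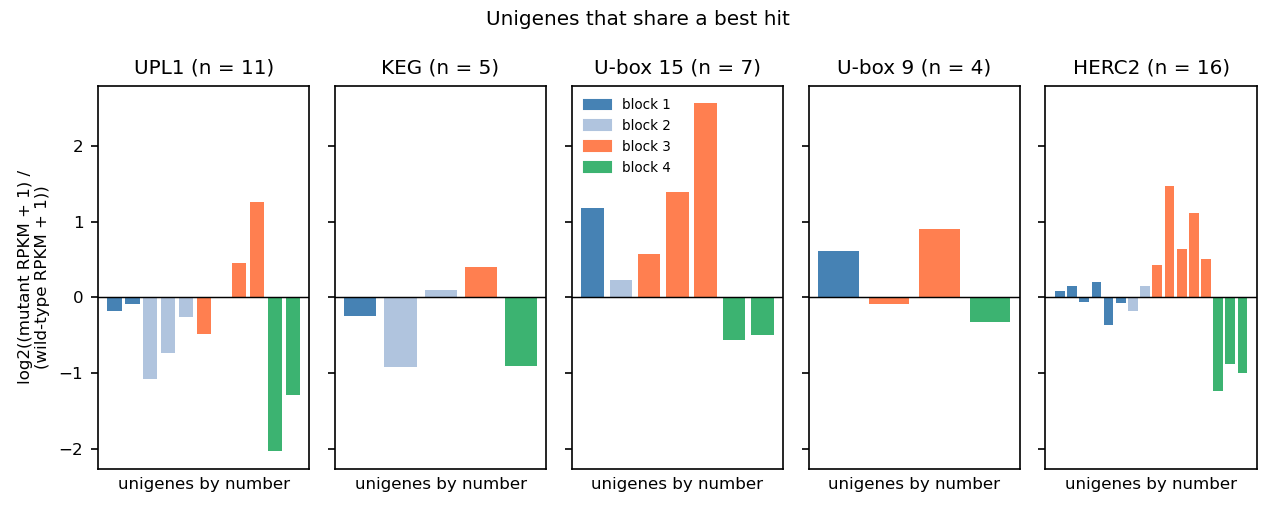
Log2 ratio of each unigene that shares the best hit UPL1, KEG, PUB15 (U-box 15), PUB9 (U-box 9) or HERC2, ordered by unigene number and coloured by number block, including members below the RPKM minimum. Bars of block 4 all point toward the wild type, bars of block 3 mostly toward the mutant, and those of the deeply read blocks 1 and 2 are mostly short.

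The rest of the ubiquitin pathway, together with ubiquitin-like and autophagy-related proteins, was examined in 8 lists. These held 331 unigenes, 324 of them kept, with 10 (3.09%) past 2-fold toward the mutant, 7 (2.16%) past it toward the wild type and a median of 0.06. Over all kept unigenes these shares were 8.61% and 5.31%. In blocks 1 and 2, 0 of 243 pathway unigenes were past 2-fold in either direction, where 1.82% of all kept unigenes were higher and 0.544% were lower. Proteasome subunits, which degrade tagged proteins, had 0 of 71 past 2-fold and a median of 0.06, and the COP9 signalosome, which switches cullin ligases, had 0 of 13 and a median of 0.06, while the median of all kept unigenes was 0.05. E2 enzymes had 2 of 46 higher and 0 lower, with a median of 0.13. Among them Unigene27909, a hit to the E2 enzyme named ubiquitin carrier protein E2 20, had 137 reads in the mutant library against 20 in the wild type (6.82-fold, 4.25 to 11.5). Cullins, SKP1, RBX1, anaphase-promoting complex and BTB/POZ proteins had 6 of 67 higher and 3 lower, with a median of −0.05 and a mean of 0.06. The words for this list also took in the ligase COP1, which was set aside from the members. In that list a hit to cdc20, the activator of the anaphase-promoting complex in mitosis (Unigene18892), had 29 reads in the mutant library against 0 in the wild type, at least 9.63-fold higher, with an exact lower limit of 7.34. Deubiquitinases, which remove ubiquitin, had 2 of 58 higher and 3 lower, and the hit to ubiquitin carboxyl-terminal hydrolase 8 (Unigene32501) had 1 read in the mutant library against 26 in the wild type (26.1-fold lower, 4.29 to 1070.4). Ubiquitin itself had 17 kept unigenes with 0 higher, 1 lower and a median of −0.15, and Unigene33731 had 6 reads in the mutant library against 23 in the wild type (3.85-fold lower, 1.52 to 11.6). The 3 E1 unigenes and the 49 for SUMO, NEDD8 and autophagy-related proteins had 0 past 2-fold. The autophagy names in that list were not limited to conjugation enzymes. In 4 lists no member was past 2-fold on the log2 scale with the pseudocount. Their unigenes with the largest ratios had 3112 reads in the mutant library against 3423 in the wild type for E1 1 (Unigene18194), 39 and 23 in that order for autophagy-related protein 18 (Unigene6549), 62 and 43 for COP9 signalosome subunit 3 (Unigene32380), and 6 and 28 for the 26S proteasome non-ATPase subunit 4 (Unigene33962). By reads this proteasome unigene of block 4 was 4.69-fold lower (1.90 to 13.8), while its log2 ratio was −0.983. The E2, cdc20, hydrolase and ubiquitin unigenes named here are all in blocks 3 and 4.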

How the data were processed

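RNA sequencing of buds gave 1 mutant and 1 wild-type library, grouped by their source names. Per the file headers, the authors deposited raw read counts per unigene and RPKM values, scaled to unigene length and library total. Unigene length in bases, 200 to 8253, was deposited as a further column of another kind (other). RPKM recomputed from counts, lengths and totals matched within 0.0001 for 100.0% of unigenes. No source used here names the assembler, aligner, counting tool or strand setting, so the handling of reads shared between near-identical copies is unknown, and members of large families are uncertain. The annotation is the deposited best hit.

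The values were log2((mutant RPKM + 1) / (wild-type RPKM + 1)), with a minimum RPKM of 1 in at least 1 library and a threshold of 2-fold. Folds used counts over library totals, with exact 95% Clopper-Pearson intervals and a floor of 3 reads per library. A median describes the list and no list was tested. Blocks were found from length alone, with a window of 200 unigenes. Python 3.11.15, pandas 2.3.3, NumPy 2.4.6 and SciPy 1.17.1 were used, and the computation was tested on simulated data. The simulation had counting noise alone and changed unigenes averaging at least 100 reads by 4-fold. It did not test calls on thinly read unigenes.

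Members, lists and the numbering blocks were chosen with earlier results of these data known. Classes and roles were set by Swiss-Prot name, and the words "ubiquitin carrier protein" were added to the E2 list, and the list of fungal genera written, after the table was seen. Named were the 10 largest ratios in each direction, role members with at least 20 reads, the 5 highest mean RPKM and the highest per class, members past 2-fold with at least 100 reads, and the largest ratio with at least 20 reads in each further pathway list. This gave 95 member unigenes, 13 of them weak hits, of which those of most weight are described. Other names are marked, or stand as the pieces of a summed name, and were chosen after their values were seen. Alternatives covered the pseudocount, the minimum, the scaling, the read number, the length, the hit and the threshold.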

Additional observations from a re-analysis of the deposited data

How the results depend on the processing

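The counts past 2-fold depended on the treatment of thinly read unigenes. Against 12 members higher in the mutant library and 13 lower among 357, a pseudocount of 0.1 gave 22 higher and 26 lower, and a pseudocount of 5 gave 1 and 1. A minimum RPKM of 5 left 6 higher and 7 lower among 263 members, and at least 100 reads left 0 and 4 among 243. At least 500 bases left 5 and 8 among 298, and the longest unigene per Swiss-Prot entry left 3 and 5 among 182. Blocks 1 and 2 alone held 1 and 1 among 247, and a 4-fold threshold left 2 and 2 among 357. Leaving out the HECT class left 8 higher and 8 lower among 309. Summing reads per protein name, with at least 20 reads, an alternative added after the data were seen, gave 5 higher and 4 lower among 161 names. Of all kept unigenes with at least 100 reads, 1.86% were 2-fold higher and 0.517% lower, and in blocks 1 and 2 these shares were 1.82% and 0.544%. Shares over all kept unigenes at the other alternative settings are not given here. The median of −0.020 became −0.068 when centred on the median of all kept unigenes, which was 0.05, and −0.086 with trimmed mean scaling, which shifts ratios by 0.07. No minimum, an E-value of at most 1e-10 and plant hits only changed neither count by more than 1.5 times. Of 380 values of single unigenes under alternatives, 0 changed sign past the threshold and 23 moved beyond their counting interval. Depth limits single unigenes: those past 2-fold toward the mutant library had at most 84 reads over both libraries. No paired analysis was possible because each genotype has 1 library.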

Other observations

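The values in this section were picked after they were seen. Among the 186 members with at least 300 reads over both libraries, 6 (3.23%) were higher in the mutant library by 1.5-fold or more and 4 (2.15%) were lower by as much, with intervals that excluded 1. Of all 11943 kept unigenes with as many reads, 3.63% were higher and 1.31% were lower by the same rule. The higher ones included hits to the membrane-anchored RING-H2 proteins ATL3G (Unigene10927, 327 reads in the mutant library against 196 in the wild type, 1.66-fold, 1.39 to 1.99) and ATL1L (Unigene16845, 241 and 150 in that order, 1.60-fold, 1.30 to 1.98), both of block 2. A hit to RING finger protein 5, Unigene9334, had 215 reads in the mutant library against 122 in the wild type (1.75-fold, 1.40 to 2.21), while all 4 hits to that name summed to 782 and 729. Lower were a hit to RING finger protein 10 (Unigene34227, 132 reads in the mutant library against 228 in the wild type, 1.73-fold lower, 1.39 to 2.17) and a hit to ZNRF3 (Unigene6339, 292 and 446, 1.53-fold lower, 1.32 to 1.78).

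CIP8, an Arabidopsis RING-H2 protein that binds the light-signalling ligase COP1, had 7 hits with 3557 reads in the mutant library against 3278 in the wild type (1.08-fold higher, 1.03 to 1.13). The most apart by interval was Unigene12850 of block 2, with 1143 reads in the mutant library against 771 in the wild type (1.48-fold, 1.35 to 1.62). All 4 hits to the fission yeast RING protein C2F3.16 had more reads in the mutant library, and summed to 3201 reads in the mutant library against 2698 in the wild type (1.18-fold, 1.12 to 1.24). Polycomb-type RING proteins, which modify histone H2A, were thinly read: the 2 hits to Polycomb group RING finger protein 3 summed to 96 reads in the mutant library against 54 in the wild type (1.77-fold, 1.26 to 2.52), and the 2 RING2-B hits had 62 and 12 in the mutant library against 73 and 18 in the wild type.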
